A study of Rattus norvegicus with 24 samples.

Results

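Transcripts of the oxygen sensing pathway and of the vascular endothelial growth factor (VEGF) pathway were followed in rat myocardium after the mitral valve was made to leak by surgery. The genes were taken by symbol, with no threshold on a measured value: the VEGF ligands Vegfa and Vegfb, the receptors Flt1, Kdr and Nrp1, the hypoxia-inducible factor (HIF) alpha subunits Hif1a and Epas1, the prolyl hydroxylases Egln1 and Egln3, and Vhl. Of these 10 genes, 9 were listed at every time, out of 10129 genes listed at every time, and Egln1 was not listed and is not analysed here. The rats were of the Sprague-Dawley strain. In the mitral regurgitation (MR) groups a mitral leaflet was perforated through a left thoracotomy, and tissue was taken after 2 weeks (n = 4), 10 weeks (n = 5), 20 weeks (n = 5) or 40 weeks (n = 5). In the Sham group (n = 5) the same operation was done without the perforation, and tissue was taken at 2 weeks only. Time since surgery, age and MR therefore cannot be told apart at 10, 20 and 40 weeks, and the same 5 Sham libraries serve as the baseline at every time. The labels give no heart chamber, sex, age or batch and do not say that libraries came from separate animals, so p-values measure the spread between these libraries.

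Cells sense oxygen through the stability of the HIF alpha subunits. With oxygen present, prolyl hydroxylases of the EGLN family mark the alpha subunit, and the VHL protein, the recognition part of a ubiquitin ligase, directs it to breakdown. When oxygen falls, the alpha subunit persists, pairs with ARNT and binds hypoxia response elements beside its targets. VEGF-A, a HIF target made in the heart largely by cardiomyocytes, acts on KDR (VEGFR2) of endothelial cells, with NRP1 as co-receptor, while FLT1 (VEGFR1) binds both VEGF-A and VEGF-B and also exists as a soluble trap. Control of the HIF alpha subunits lies mainly at the protein, which was not measured here.

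Each library held between 7.69 M and 12.1 M reads on listed genes. Values are normalised counts, which are gene counts divided by a factor per library. They are not divided by gene length, so levels are compared between groups for a gene and not between genes. Ranking by count served to choose which list genes are named, and that rank also depends on gene length. Of the 13 cardiomyocyte markers used to check the tissue label, 12 were listed, with summed normalised counts of 37156 to 54450 in MR at 40 weeks and 49964 to 68348 in Sham. In bulk tissue, fewer cells of a type and less RNA per cell cannot be told apart.

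Promoter windows of the 4 genes that differed from Sham at 40 weeks are shown first, since the pathway acts through a short DNA element, the hypoxia response core. The windows run from 250 bases before to 50 bases after the RefSeq start on build GRCr8, 5′ to 3′ on the gene's strand, and capitals mark the core (ACGTG or GCGTG, either strand, so that CACGT and CACGC are its reverse readings). They are Vegfa at chr9:22452604-22452903 (plus strand, the first of 2 start sites), Nrp1 at chr19:73256307-73256606 (plus strand), Epas1 at chr6:13624680-13624979 (minus strand) and Egln3 at chr6:77410966-77411265 (minus strand).
Vegfa: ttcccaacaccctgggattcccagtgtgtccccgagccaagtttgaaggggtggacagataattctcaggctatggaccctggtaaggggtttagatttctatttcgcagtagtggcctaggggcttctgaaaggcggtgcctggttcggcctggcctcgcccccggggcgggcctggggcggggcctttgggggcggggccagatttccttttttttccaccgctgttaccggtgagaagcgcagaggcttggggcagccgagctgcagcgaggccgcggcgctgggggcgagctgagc
Nrp1: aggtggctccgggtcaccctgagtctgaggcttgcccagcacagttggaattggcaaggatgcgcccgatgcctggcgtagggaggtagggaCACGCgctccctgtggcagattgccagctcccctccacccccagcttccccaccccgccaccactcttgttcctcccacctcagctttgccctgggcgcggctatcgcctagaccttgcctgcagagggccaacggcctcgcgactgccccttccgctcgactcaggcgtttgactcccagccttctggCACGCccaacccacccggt
Epas1: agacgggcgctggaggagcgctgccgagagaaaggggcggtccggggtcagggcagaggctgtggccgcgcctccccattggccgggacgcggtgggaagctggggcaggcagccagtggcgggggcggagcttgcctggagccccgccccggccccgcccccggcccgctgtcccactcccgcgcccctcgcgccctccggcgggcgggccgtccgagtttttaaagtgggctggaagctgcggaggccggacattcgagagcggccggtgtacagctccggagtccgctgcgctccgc
Egln3: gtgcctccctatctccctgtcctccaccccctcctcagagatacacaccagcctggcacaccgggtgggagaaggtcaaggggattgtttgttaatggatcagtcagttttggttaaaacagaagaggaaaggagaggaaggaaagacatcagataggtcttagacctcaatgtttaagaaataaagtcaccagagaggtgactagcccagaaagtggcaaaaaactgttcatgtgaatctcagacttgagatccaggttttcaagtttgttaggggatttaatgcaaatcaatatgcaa
The Nrp1 window held 2 matches, both read as CACGC, whose first bases lay at -158 and 32 from the start. The windows of Vegfa (both start sites), Epas1, Egln3 and Vhl held none. Among the other members, Hif1a held 3 matches, of which a pair at -229 and -228 overlapped, Kdr and Egln1 held 2 each, and Flt1 and Vegfb held 1 each. Matches stood in 6 of the 11 windows of the 10 genes, and 13937 of 33469 promoters of the same length (41.6%) held at least 1. A match is a string of letters and not a shown binding site, and a window without it says only that the letters are not in that window.

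At 2, 10 and 20 weeks none of the 9 genes passed the test against Sham, and at 40 weeks 4 did: Egln3, Epas1 and Nrp1 rose and Vegfa fell. The test was limma on log2(normalised count + 1) over all genes of a table, with a Benjamini-Hochberg adjusted p under 0.05. At 2 weeks the 0 of 9 stood beside 0% of all tested genes, with 0 members at an unadjusted p under 0.05 (5.47% of all genes), and edgeR and DESeq2 on recovered reads also gave 0 members. At 10 weeks the 0 of 9 stood beside 0.168% of all genes, with 2 members (Nrp1 and Vhl) at an unadjusted p under 0.05, as had 12% of all genes. At 20 weeks it stood beside 0.0698%, with 1 such member (Kdr) beside 9.49% of all genes. With edgeR and DESeq2 the count was 0 at both times. At 40 weeks the 4 of 9 members (44.4%) stood beside 47.3% of all genes, of which 16.3% were higher and 30.9% lower in MR. The share of members called was thus close to that of the whole table, and the count alone sets the pathway apart from nothing. The groups of these 4 genes did not overlap, as was the case for 29.2% of all genes at 40 weeks.

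The median of all genes at 40 weeks was -0.15 on the log2 scale as deposited and -0.010 after the libraries were rescaled by median ratios. The split of calls was 1648 higher and 3124 lower as deposited, and 2391 higher and 2196 lower after rescaling. Relative to that shift the 4 genes kept their directions. After rescaling, limma gave Egln3 1.70, Epas1 1.45, Nrp1 1.15 and Vegfa -0.64, with adjusted p from 2.69e-04 (Epas1) to 0.00646 (Vegfa).

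**Figure D1:**
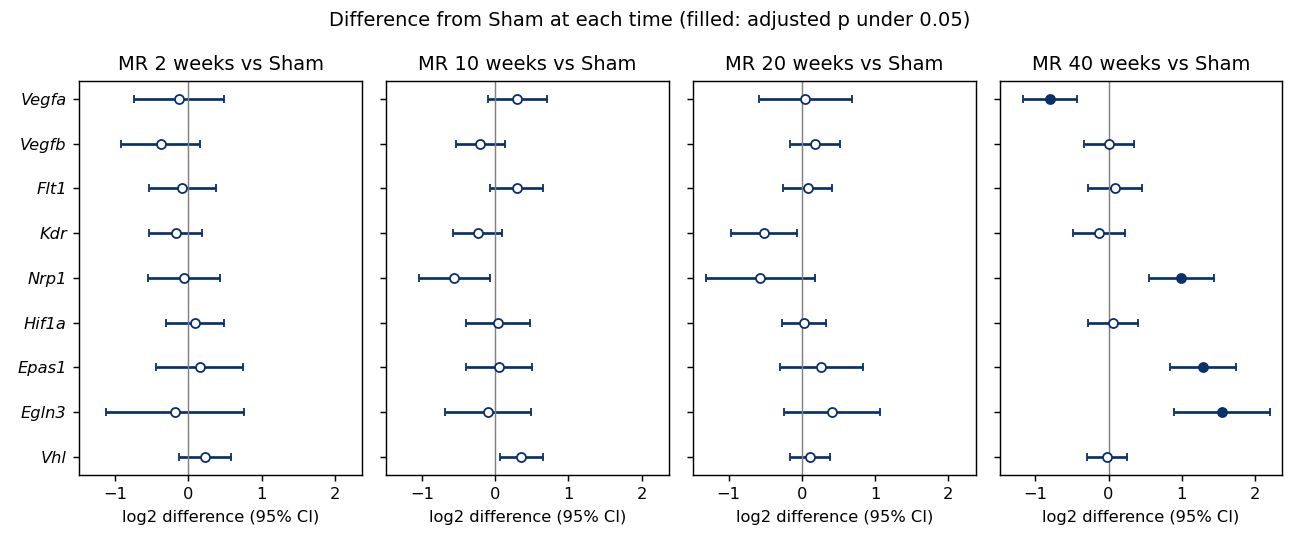
Log2 difference of MR minus Sham for the 9 genes (rows) at 2, 10, 20 and 40 weeks (panels), with 95% intervals and filled points for an adjusted p under 0.05 in limma. Filled points appear only at 40 weeks, for Egln3 at 1.54, Epas1 at 1.29, Nrp1 at 0.99 and Vegfa at -0.80.

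Of the ligands, Vegfa was lower in MR at 40 weeks and Vegfb did not pass the test. Vegfa (chr9:17340341-17355681, plus strand, rn6 as the tables give it) encodes the main growth factor for blood vessel endothelium. Its normalised counts were 501, 470, 614, 628 and 445 in the MR libraries at 40 weeks, against 888, 1241, 878, 844 and 781 in the Sham libraries of the same table. Every MR library at 40 weeks stood below every Sham library. The means were 532 ± 84.2 in MR and 927 ± 181 in Sham (SD, n = 5 each), and the log2 difference was -0.80 ± 0.17 (SE, limma adjusted p = 0.00236). The call depended on the fit: in a single fit of all 24 libraries after rescaling, the difference was -0.61 with an adjusted p of 0.0824. Over the other alternatives, leaving out each library included, the adjusted p ran from 2.15e-04 to 0.00879.

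Vegfa spread widely within the earlier MR groups. On a scale rescaled across all libraries (rescaled counts, which allow the MR times to be set side by side), the values were 1775, 663, 763 and 655 at 2 weeks, with replicate 1 far above the others. At 10 weeks they were 1460, 1165, 917, 785 and 1103. At 20 weeks they were 1944, 1061, 840, 902 and 465, so that the highest library was 4.18 times the lowest. At 40 weeks the values closed to a ratio of 1.31, from 532 to 697, and the Sham libraries had 777 to 1262. By group means the order was MR at 10 weeks (1086 ± 258), MR at 20 weeks (1043 ± 549), MR at 2 weeks (964 ± 543), Sham (918 ± 202) and MR at 40 weeks (594 ± 77.1, SD). Neighbours above MR at 40 weeks did not differ beyond their spread. Between MR times, limma gave 40 weeks against 10 weeks a difference of -0.85 (adjusted p = 0.0147), without overlap. The differences at 40 weeks from 20 weeks (-0.67, adjusted p = 0.0645) and from 2 weeks (-0.57, adjusted p = 0.124) did not pass.

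Vegfb (chr1:222239020-222242645, minus strand) encodes a ligand of FLT1 that is abundant in heart muscle. Its normalised counts at 40 weeks were 87.1 to 120 in MR and 73.3 to 122 in Sham, and the log2 difference of 0.00026 had a 95% interval of -0.34 to 0.34. Between MR times, Vegfb was higher at 40 weeks than at 2 weeks by 0.48 (adjusted p = 0.0459) and than at 10 weeks by 0.45 (adjusted p = 0.0372). The rescaled counts overlapped in both comparisons: 94.7 to 129 at 40 weeks, 61.1 to 96.6 at 10 weeks and 45.1 to 103 at 2 weeks. Both calls were fragile. Against 2 weeks, the adjusted p rose to 0.329 and the difference dropped to 0.20 without replicate 1 of MR at 2 weeks, the library with 45.1. That call was also lost without replicate 3 of MR at 2 weeks. Leaving out any of replicates 2, 3, 4 and 5 of MR at 40 weeks lost it too. Over the leave-outs, all in limma, its adjusted p ran from 0.0211 to 0.329. With all libraries, edgeR did not give the call either (0.41, adjusted p = 0.0826). The call against 10 weeks was lost without replicate 1, 4 or 5 of MR at 10 weeks or replicate 2, 3 or 4 of MR at 40 weeks, with adjusted p up to 0.117.

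Among the receptors, Nrp1 was higher in MR at 40 weeks, while Flt1 and Kdr did not pass the test against Sham at any time. Nrp1 (chr19:61332351-61484111, plus strand) encodes neuropilin 1, a co-receptor for VEGF-A and for class 3 semaphorins. Its normalised counts were 80.3, 96.0, 83.7, 102 and 122 in MR at 40 weeks, against 31.1, 42.4, 44.7, 51.5 and 80.0 in Sham. The groups did not overlap, but the margin was small, since the lowest MR library had 80.3 and the highest Sham library 80.0. The means were 96.6 ± 16.5 and 49.9 ± 18.4 (SD, n = 5 each), with a log2 difference of 0.99 ± 0.21 (SE, limma adjusted p = 0.00182).

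Nrp1 was also higher at 40 weeks than at each earlier MR time. The rescaled counts were 43.0, 52.4, 44.8 and 51.3 in MR at 2 weeks, then 21.2, 37.1, 34.2, 23.1 and 39.7 at 10 weeks. At 20 weeks they were 23.7, 12.6, 37.8, 36.2 and 74.8, and at 40 weeks 87.0, 109, 89.6, 113 and 148. All 40-week libraries thus stood above all earlier MR libraries. Limma gave 40 weeks a difference of 1.15 from 2 weeks (adjusted p = 0.00599), 1.80 from 10 weeks (adjusted p = 3.90e-05) and 1.73 from 20 weeks (adjusted p = 1.27e-04). By group means the order was MR at 40 weeks (109 ± 24.5), Sham (49.4 ± 18.5), MR at 2 weeks (47.9 ± 4.67), MR at 20 weeks (37.0 ± 23.4) and MR at 10 weeks (31.1 ± 8.42). No neighbours below MR at 40 weeks differed beyond their spread, and the difference of -0.56 between MR at 10 weeks and Sham had a limma p of 0.0273 before adjustment and 0.355 after it.

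Kdr (chr14:34727677-34787127, plus strand) encodes the main signalling receptor for VEGF-A. Against Sham its log2 differences were -0.17, -0.24, -0.52 and -0.13 at 2, 10, 20 and 40 weeks, with limma adjusted p of 0.851, 0.586, 0.436 and 0.531. The value at 40 weeks changed sign under rescaling (0.026). Its rescaled counts at 20 weeks were 80.0, 55.2, 97.9, 79.5 and 146, and at 40 weeks 118, 141, 129, 100 and 164, so the groups overlapped. Kdr was higher at 40 weeks than at 20 weeks by 0.56 (adjusted p = 0.0219). That call was lost without replicate 2 of MR at 20 weeks (0.40, adjusted p = 0.0924) and without replicate 5 of MR at 40 weeks (0.48, adjusted p = 0.0701), in a range of 0.00139 to 0.0924 over all leave-outs. Without replicate 5 of MR at 20 weeks, Kdr also passed as lower at 20 weeks than at 2 weeks.

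Flt1 (chr12:9034409-9205887, plus strand) encodes VEGFR1, the receptor shared by both ligands. Its group means of rescaled counts ran from 182 ± 37.0 in MR at 2 weeks to 218 ± 33.2 in MR at 40 weeks, with 182 ± 40.1 in Sham, and no neighbours in that order differed beyond their spread. The difference from Sham at 40 weeks was 0.087, with a 95% interval of -0.29 to 0.46.

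The alpha subunits of HIF parted at 40 weeks: Epas1 was higher in MR and Hif1a did not pass. Epas1 (chr6:10306508-10385240, plus strand on rn6, minus strand on GRCr8) encodes HIF-2 alpha, the form known for high levels in endothelial cells. Its normalised counts were 160, 161, 138, 165 and 159 in MR at 40 weeks, against 92.2, 59.1, 35.5, 59.3 and 88.3 in Sham. The groups did not overlap: the lowest MR library had 138 and the highest Sham library 92.2. The means were 157 ± 10.9 and 66.9 ± 23.5 (SD, n = 5 each), and the log2 difference was 1.29 ± 0.21 (SE, limma adjusted p = 4.58e-04).

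Epas1 separated 40 weeks from every other group. Its rescaled counts were 50.6, 79.1, 90.8 and 82.3 in MR at 2 weeks and 47.6, 72.5, 63.1, 67.8 and 60.0 at 10 weeks. At 20 weeks they were 53.4, 51.3, 76.8, 96.4 and 124, and at 40 weeks 174, 183, 148, 184 and 193. The 20-week group reached furthest toward the 40-week values, with 124 in replicate 5. Differences of 40 weeks from 2, 10 and 20 weeks were 1.23, 1.495 and 1.20 (limma adjusted p = 3.24e-04, 1.14e-05 and 2.50e-04). In order of means, MR at 40 weeks (176 ± 17.5) was followed by MR at 20 weeks (80.4 ± 30.6), MR at 2 weeks (75.7 ± 17.4), Sham (65.4 ± 21.5) and MR at 10 weeks (62.2 ± 9.42), and the last 4 did not differ beyond their spread in the tests of neighbours.

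Hif1a (chr6:96811185-96856051, plus strand) encodes HIF-1 alpha. Its rescaled counts stayed between 7.96 and 18.9 over all 24 libraries, with group means of 14.7 ± 2.68, 13.1 ± 4.08, 13.3 ± 0.678 and 15.5 ± 2.99 in MR at 2, 10, 20 and 40 weeks and 12.99 ± 2.11 in Sham. The difference from Sham at 40 weeks was 0.057, with a 95% interval of -0.29 to 0.40, so a rise of the size seen for Epas1 lay outside that interval. No pair of groups passed the test for Hif1a.

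Of the sensors, the hydroxylase Egln3 was higher in MR at 40 weeks and Vhl was not called at any time. Egln3 (chr6:75050329-75075796, minus strand) encodes PHD3, a prolyl hydroxylase that is itself a HIF target. Its normalised counts were 219, 203, 145, 283 and 193 in MR at 40 weeks, against 108, 38.8, 36.9, 112 and 91.7 in Sham. The groups did not overlap, although Sham fell into a lower pair and 3 higher libraries. The means were 209 ± 49.8 and 77.4 ± 36.9 (SD, n = 5 each), and the log2 difference of 1.54 ± 0.31 (SE, limma adjusted p = 0.00131) was the largest of the 9 genes in that comparison.

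Egln3 rescaled counts were 30.3, 92.7, 51.9 and 114 in MR at 2 weeks, wider than the 39.3 to 103 of Sham. At 10 weeks they were 57.9, 60.3, 65.2, 56.8 and 64.3, the narrowest group. At 20 weeks they were 64.1, 92.5, 89.1, 90.2 and 137, and at 40 weeks 237, 230, 155, 314 and 235. Every 40-week library again stood above every library of the earlier MR times. Limma gave differences of 1.82, 1.89 and 1.31 from 2, 10 and 20 weeks (adjusted p = 1.40e-04, 2.11e-05 and 0.00161). By means, MR at 40 weeks (234 ± 56.2) was followed by MR at 20 weeks (94.5 ± 26.3), Sham (74.9 ± 32.8), MR at 2 weeks (72.2 ± 38.1) and MR at 10 weeks (60.9 ± 3.77), and none of the lower neighbours differed beyond their spread.

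Vhl (chr4:145580869-145587836, plus strand) had rescaled counts of 9.81 to 17.4 over all libraries. Its difference from Sham was 0.36 at 10 weeks (limma adjusted p = 0.324, unadjusted 0.0215). At 40 weeks it was -0.017, with a 95% interval of -0.29 to 0.25, and 0.13 under rescaling.

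**Figure D2:**
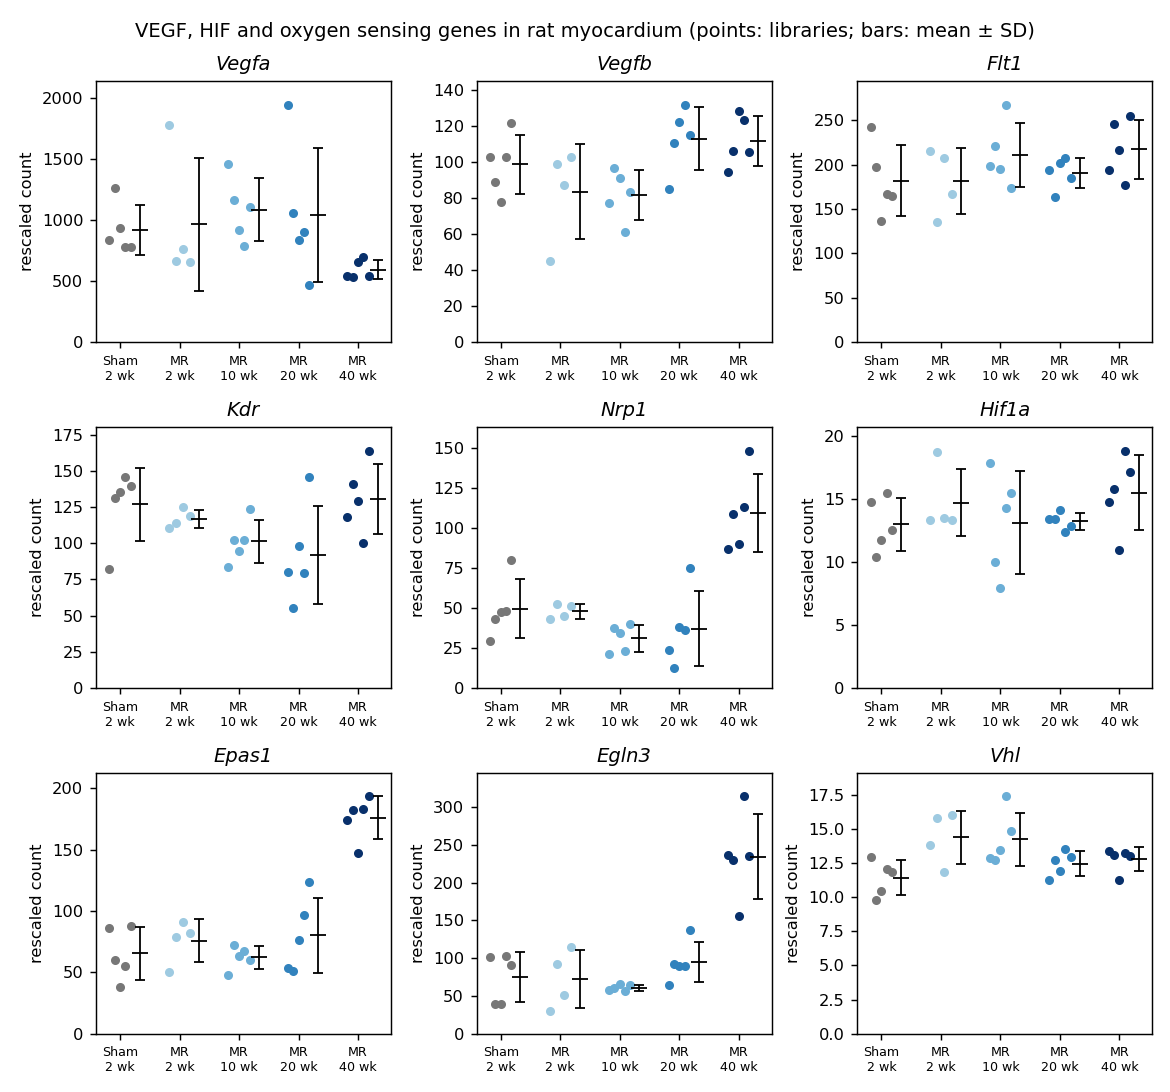
Rescaled counts (linear axis from 0) of the 9 genes in Sham at 2 weeks and in MR at 2, 10, 20 and 40 weeks; points are libraries and bars the mean ± SD. Epas1, Egln3 and Nrp1 stand at 148 to 193, 155 to 314 and 87.0 to 148 in MR at 40 weeks, above all other groups, and Vegfa has its lowest group mean there (594, libraries at 532 to 697), although 1 library of MR at 20 weeks is lower, at 465.

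Counted over the 9 genes, calls between MR times came only from comparisons with 40 weeks. Of the 9, 0 passed at 10 against 2 weeks (1.37% of all genes called), 0 at 20 against 2 weeks (8.81%) and 0 at 20 against 10 weeks (0.01%), all with limma. At an unadjusted p under 0.05 there were 0, 2 and 1 members, beside 15.2%, 26.9% and 15.2% of all genes, and edgeR on recovered reads called 0 in each. Groups did not overlap for 1, 0 and 0 members, beside 5.16%, 10.4% and 3.06% of all genes. The 1 was Nrp1, at 21.2 to 39.7 rescaled counts in MR at 10 weeks and 43.0 to 52.4 at 2 weeks, with a difference of -0.65 (limma adjusted p = 0.344). At 40 weeks, 4 passed against 2 weeks (45.7% of all genes), 5 against 10 weeks (54.2%) and 4 against 20 weeks (38.8%). As against Sham, these shares of 44.4%, 55.6% and 44.4% were near those of all genes. Groups did not overlap for 3 members against 2 weeks (32.1% of all genes), 4 against 10 weeks (39.1%) and 3 against 20 weeks (22.9%). The 3 comparisons share the 40-week libraries.

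Ratios between paired members, taken on value + 1 within a library, depend little on how that library was scaled. Vegfb over Vegfa, the balance of the ligands, was -2.51, -2.31, -2.34, -2.48 and -2.34 on the log2 scale in MR at 40 weeks, against -3.00, -3.81, -3.57, -2.92 and -2.66 in Sham. The groups did not overlap, and the difference was 0.80 (exact permutation p = 0.00794, two-sided, the smallest that 5 against 5 libraries can give; 0.0476 adjusted over 12 ratios). Epas1 over Hif1a was 3.47, 3.44, 3.63, 3.21 and 3.40 in MR at 40 weeks, against 2.48, 2.42, 1.59, 1.77 and 2.71 in Sham, again without overlap, with a difference of 1.23 (exact permutation p = 0.00794, adjusted 0.0476). These ratios rest on counts and not on levels per length, so only their difference between groups can be read. Vegfb (0.00026) and Hif1a (0.057) hardly differed from Sham at 40 weeks. The ratios thus restate the differences of Vegfa (-0.80) and Epas1 (1.29) and are no separate evidence. Each adjusted p under 0.05 also rests on both ratios reaching the smallest p together.

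Flt1 over Kdr, the ratio of the receptor genes, did not pass at any time. The Flt1 count is of the whole gene and does not part the membrane form from the soluble one. Its difference from Sham was 0.089, 0.53, 0.60 and 0.22 at 2, 10, 20 and 40 weeks (exact permutation p = 0.81, 0.143, 0.135 and 0.532). The Sham libraries themselves ran from 0.019 to 1.55 and the MR libraries at 40 weeks from 0.63 to 0.81. The 2 other ratios did not pass at 2, 10 or 20 weeks either, where the nearest was Vegfb over Vegfa at 10 weeks, with a difference of -0.51 (exact permutation p = 0.0952). At 2 weeks, 4 against 5 libraries allow no exact p below 0.0159, so 1 ratio alone could not have passed after adjustment.

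**Figure D3:**
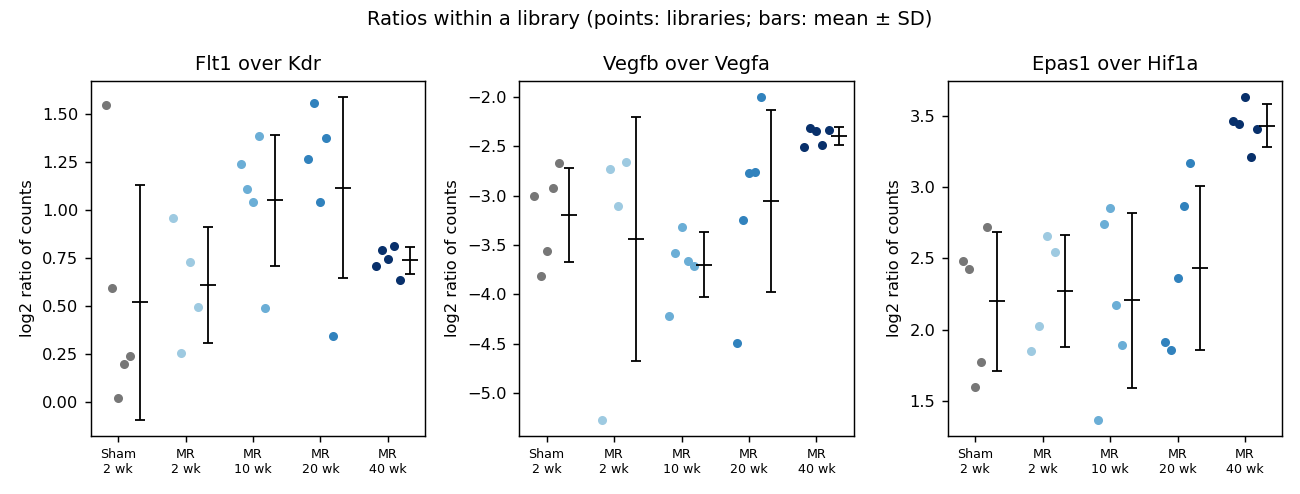
Log2 ratio of normalised counts within each library for 3 pairs of genes (panels), in Sham and in MR at 2, 10, 20 and 40 weeks; points are libraries and bars the mean ± SD. In MR at 40 weeks Vegfb over Vegfa averages -2.40 ± 0.0909 against -3.19 ± 0.477 in Sham, and Epas1 over Hif1a 3.43 ± 0.151 against 2.20 ± 0.486, with Sham values from the 2-week table.

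Within groups, members moved with and against each other. After subtraction of each group's mean from the log2 rescaled counts, Pearson's r over the 24 libraries was above 0 for 19 of the 36 pairs of genes and below 0 for 17, with a median of 0.026. The highest was 0.83 between Kdr and Nrp1, a receptor and its co-receptor. Both deviated most in MR at 20 weeks, in replicate 2 (-0.65 and -1.26) and replicate 5 (0.74 and 1.22). The lowest were -0.69 between Vegfa and Epas1 and -0.68 between Vegfa and Egln3. Vegfa deviated most in replicate 1 of MR at 2 weeks (1.02) and replicates 1 and 5 of MR at 20 weeks (1.05 and -1.01). Epas1 stood there at -0.54, -0.50 and 0.70. These r thus rest largely on few libraries, and none was computed without them. Egln3 ran with Vegfb (0.67), Vhl (0.64) and Epas1 (0.62), and Hif1a with Epas1 gave -0.0015. These values describe the libraries, which share depth and RNA handling, and carry no p.

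The genes most like 4 of the members in these deviations were sought among 9983 genes. For Vegfa they were Srsf6 (0.97) and C2cd5 (0.96). For Kdr they were Kcnj8 (0.87), Tek (0.86), the angiopoietin receptor, and Atp2b4 (0.85). For Hif1a they were Mob4 (0.85), Tnpo1 (0.83) and Pcmtd2 (0.83), and for Egln3 they were Ehd4 (0.95), Dld (0.94) and Plekhb2 (0.94). These genes were picked as the highest of 9983, so a high r follows from that choice and carries no p. Vegfa deviated most in the few libraries named above, and these r were not computed without them.

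**Figure D4:**
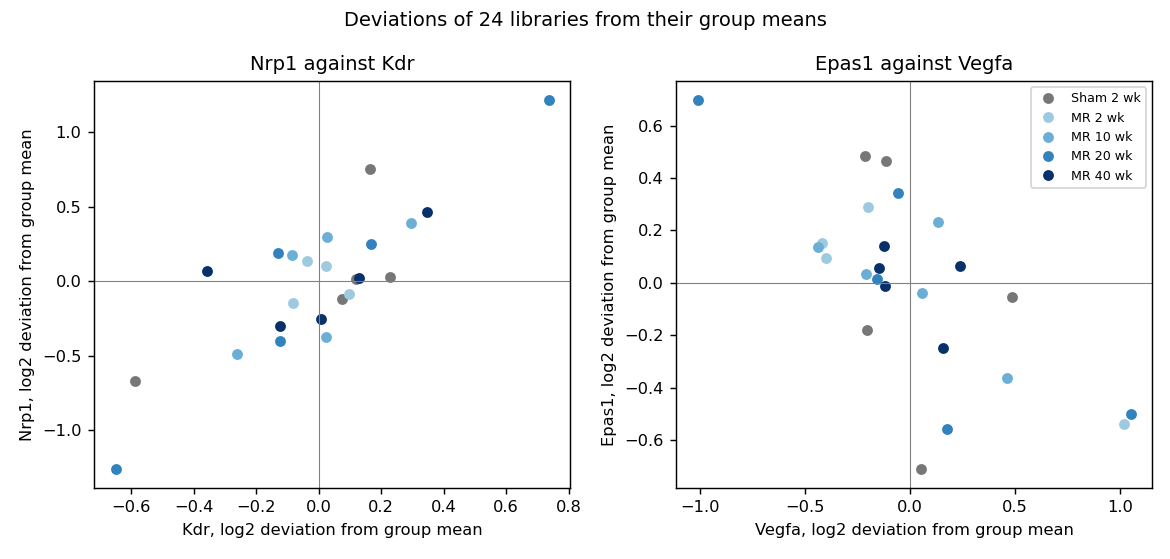
Log2 deviation of each of the 24 libraries from its group mean, Nrp1 against Kdr and Epas1 against Vegfa, coloured by group. Points for Kdr and Nrp1 run upward (r = 0.83) and those for Vegfa and Epas1 downward (r = -0.69).

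The genes around these members were read from lists of the same pathway, at 40 weeks against Sham, beside the median of -0.15 for all genes, of which 47.3% were called, 16.3% as higher and 30.9% as lower. After rescaling, 2391 of 10077 genes were called higher and 2196 lower. Of 12 measured genes of the oxygen sensing machinery, 3 rose (25%) and 4 fell (33.3%), with a median of -0.23. Hif1an, the asparaginyl hydroxylase that restrains HIF activity, rose by 2.03 ± 0.29 (SE, adjusted p = 2.59e-04), from low counts: 10.8 ± 3.61 in MR and 1.92 ± 1.16 in Sham. Cited2, which competes with HIF for its coactivator, rose by 0.77, and Arnt, the partner of the alpha subunits, by 0.49. Elob (-0.75) and Rbx1 (-0.68), parts of the VHL ligase, fell, as did the coactivator Crebbp (-0.44) and the hydroxylase Egln2 (-0.39). After rescaling the list counted 4 up and 2 down, and Crebbp and Egln2 no longer passed. When single libraries were left out, the call of Egln2 was lost in 5 cases (adjusted p up to 0.0781) and that of Arnt in 1 (without replicate 4 of MR at 40 weeks, 0.0509).

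Of 35 measured HIF target genes, 9 rose (25.7%) and 5 fell (14.3%), with a median of 0.0019, and 12 rose and 3 fell after rescaling. The 40.0% called stood beside 47.3% of all genes, and no difference from all genes was tested. Those that rose were the hexokinases Hk2 (2.34 ± 0.35 SE, adjusted p = 2.70e-04, 41.5 ± 8.09 in MR and 8.61 ± 5.32 in Sham) and Hk1 (0.60), the pyruvate dehydrogenase kinase Pdk1 (1.102), Ero1a (0.99), Stc2 (0.88), the glucose transporter Slc2a1 (0.81), Bnip3 (0.72), P4ha1 (0.66) and Bhlhe40 (0.56). Those that fell were Higd1a (-0.98), Pfkfb4 (-0.79), the glycolytic enzymes Gapdh (-0.70) and Eno1 (-0.38), and Bnip3l (-0.50). Of the 3 targets with the highest counts, Gapdh fell, whereas Aldoa had a difference of -0.25 (adjusted p = 0.237) and Ldha of 0.0019 (adjusted p = 0.994). The calls of Bnip3 and Eno1 were lost in 7 and 8 of the 10 fits with 1 library left out (adjusted p up to 0.0916 and 0.0847), and those of Eno1 and Bnip3l under rescaling. Egln3 (up) and Vegfa (down) are HIF targets too, and calls in both directions were common among all genes.

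Of 23 measured genes of VEGF and vessel signalling, 3 rose (13.04%) and 6 fell (26.1%), with a median of -0.29, so that 39.1% were called beside 47.3% of all genes, and after rescaling 4 rose and 3 fell. The rises were Angpt1 (1.53), a ligand of the TEK receptor, Nrp2 (0.59) and the ligand Vegfd (0.54). The falls were Plcg1 (-1.002), which acts downstream of KDR, the apelin receptor Aplnr (-0.97), the endothelial nitric oxide synthase Nos3 (-0.79), Tie1 (-0.63), Notch4 (-0.55) and Plxnd1 (-0.55). Notch1, the other of the 3 genes with the highest counts beside Plcg1 and Notch4, had a difference of -0.22 (adjusted p = 0.277). The calls of Vegfd, Nrp2, Plxnd1, Notch4 and Aplnr were each lost in 3 to 8 of the 10 fits with 1 library left out, with adjusted p up to 0.0921, and those of Plxnd1, Notch4 and Aplnr under rescaling. At 2, 10 and 20 weeks no gene of these 3 lists passed against Sham, while 0%, 0.168% and 0.0698% of all genes did.

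**Figure D5:**
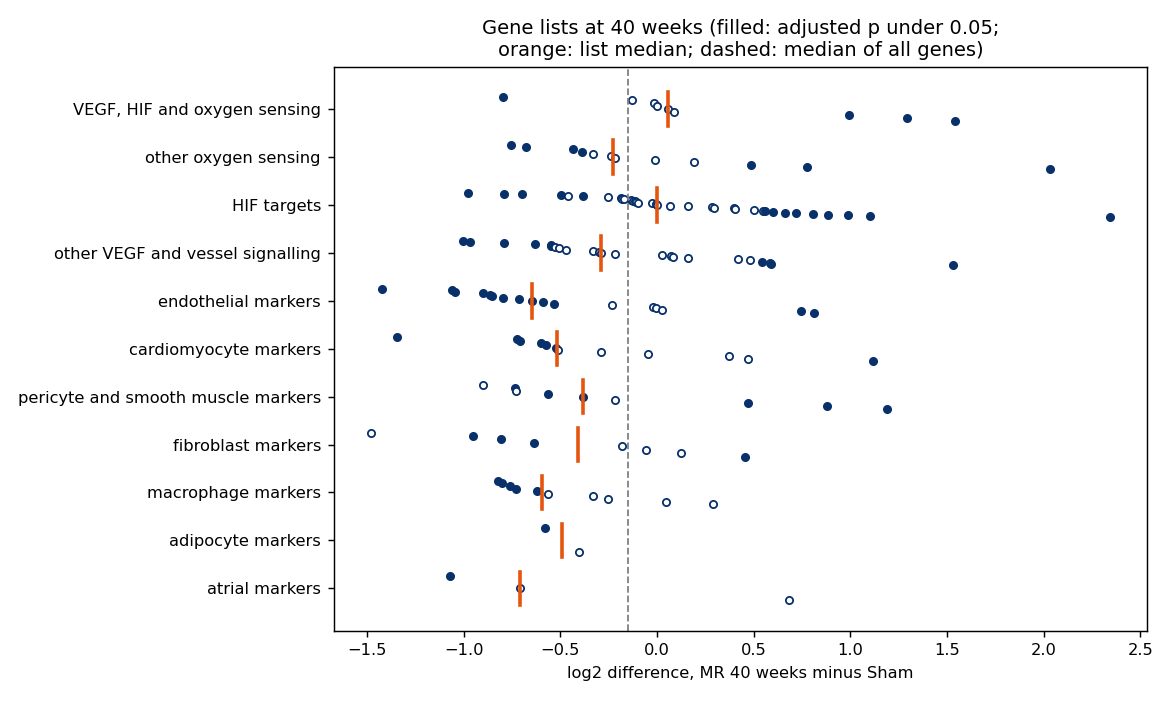
Log2 difference of MR at 40 weeks minus Sham for the 9 genes (top row) and every measured gene of 10 gene lists, with filled points for an adjusted p under 0.05, the list median in orange and the median of all genes, -0.15, as a dashed line. HIF targets spread to both sides around 0.0019, and the endothelial markers lie mostly below 0, around -0.65.

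Marker genes of cell types moved at 40 weeks as well, and their part in the results above was not tested. Of all genes, 47.3% were called at 40 weeks, 16.3% as higher and 30.9% as lower. After rescaling, 2391 of 10077 genes were called higher and 2196 lower. Of 17 measured endothelial markers, the cells that carry Kdr, Flt1 and much of Epas1, 2 rose and 11 fell, with a median of -0.65 and summed normalised counts of 696 to 1016 in MR and 960 to 1350 in Sham. Cd34 (0.81) and Cdh5 (0.75) rose and Pecam1 (-0.59) fell, and Vwf (-0.021) and Eng (-0.23) did not pass. Other falls were larger: with 1 library left out, Egfl7 ran from -1.59 to -1.31, Plvap from -1.29 to -0.90 and Emcn from -1.18 to -0.95. After rescaling 2 rose and 8 fell. Kdr and Flt1, which are endothelial themselves, did not pass, and Epas1 rose while most of these markers were lower.

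The same shares of all genes, 16.3% higher and 30.9% lower, stand beside the lists that follow, and no difference from them was tested. Of 12 cardiomyocyte markers, 1 rose and 6 fell, among them Ryr2 (1.12) and Tnni3 (-1.35), and Mb (-0.72) fell while Myh6 (-0.29) and Tnnt2 (-0.51) did not pass. Of 9 pericyte and smooth muscle markers, 3 rose and 3 fell, with sums of 284 to 426 in MR and 254 to 561 in Sham: Abcc9 (0.47) rose, Pdgfrb (-0.56) fell, and Myh11 (-0.22) did not pass. Of 8 fibroblast markers, 1 rose and 3 fell, with sums of 535 to 727 in MR and 626 to 1633 in Sham: Col1a1 (-0.95) and Col1a2 (-0.81) fell and Dcn (0.12) did not pass. The falls made up 33.3% of the pericyte and smooth muscle list and 37.5% of the fibroblast list, near the 30.9% of all genes. Of 10 macrophage markers 5 fell, C1qa (-0.76), Lyz2 (-0.73) and C1qc (-0.62) among them, with sums of 58.7 to 141 in MR and 107 to 214 in Sham. Of 2 listed adipocyte markers Cfd (-0.58) fell and Lipe (-0.40) did not pass, and of 3 listed atrial markers Myl4 (-1.07) fell while Myl7 (-0.71) and Nppa (0.68) did not pass. The atrial sums spread widely between libraries: 80.1 to 1852 in MR and 97.8 to 551 in Sham at 40 weeks. In MR they were 39.0 to 1200 at 2 weeks, 219 to 4253 at 10 weeks and 218 to 1492 at 20 weeks. The labels give no heart chamber, and the part of the tissue sampled in the results was not tested. None of these lists had a gene that passed against Sham at 2, 10 or 20 weeks, when 0%, 0.168% and 0.0698% of all genes passed, so a count of 0 says little of so few genes. None of the 131 measured genes of all lists was at 0 in any library. That held for every gene listed, with at least 1 read in each library, so it says nothing of these lists. With 1 library left out, calls of Mb, Col1a1, Col1a2, C1qa, C1qc, Lyz2, Cfd and Myl4 were lost in 2 to 6 of the 10 fits. Under rescaling, when 2391 of 10077 genes were called higher and 2196 lower, the cardiomyocyte markers counted 3 up and 5 down. The pericyte and smooth muscle markers counted 3 up and 1 down, and the fibroblast markers 1 up and 0 down. The macrophage markers then counted 0 up and 2 down, the adipocyte markers 0 up and 0 down, so that Cfd no longer passed, and the atrial markers 0 up and 1 down.

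The span of a gene on the genome also went with its difference at 40 weeks. When the genes tested were put in 5 groups of near equal size by span on rn6, the median log2 difference was -0.41 in the shortest, -0.25, -0.14 and -0.019 in the next 3, and 0.097 in the longest. Nrp1, Epas1 and Flt1 belong to the longest group, Kdr and Hif1a to the next, Vegfa and Egln3 to the middle one, Vhl to the second shortest and Vegfb to the shortest. The differences of Nrp1 (0.99), Epas1 (1.29) and Egln3 (1.54) lay above the median of their span group, and that of Vegfa (-0.80) below its own. These genes are named because they were called at 40 weeks, so a distance from the median follows from that choice. At 2, 10 and 20 weeks the medians of the 5 groups lay between -0.13 and 0.087. The part of span, or of anything that varies with it, in these differences was not tested.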

How the data were processed

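The authors deposited 4 tables of linear normalised counts per gene (unit: signal), each holding 1 MR time and all 5 Sham libraries. Partek and build rn6 come from the submitters' processing notes. For the aligner, annotation, counting rule, strand and scaling, the setting is not given in the sources used here, so overlapping and antisense genes cannot be told apart. Coordinates stand as in the tables, and their base (0 or 1) is unknown. A Sham library's values in later tables are 0.916 to 1.00 of those at 2 weeks.

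Values were tested as log2(value + 1), which understates changes of low genes, with limma 3.58.1 (R 4.3.3, two-sided), over the 10025 to 10173 genes per table with a mean of at least 1. All 9 listed members met that minimum. MR times were compared in 1 fit of 24 libraries and 9984 genes, rescaled by median ratios. Dividing out each library's factor gave values within 0.1 of a whole read for 97.4% to 97.5% of values. These reads were tested with edgeR 4.0.16 (0, 5, 8 and 4602 genes called in time order) and DESeq2 1.42.0 (57, 83, 92 and 4828). Ratios were tested by exact permutation (scipy 1.17.1). The limma and edgeR fits of MR against Sham were also run on data simulated for the latest MR time. The outcome of that run is not given here, so it says nothing of how the fits behave on the measured values.

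Named are all listed members, the 3 genes of each list with the highest mean in the 40-week table, and the 3 genes most like Vegfa, Kdr, Hif1a and Egln3, of which 1 is not reported here. Further list genes were named after their values were seen. The rule for the members uses gene symbols and no measured value, but members and lists were chosen with earlier results of these data known, so the choice was not blind to them. Promoter windows are RefSeq's, build GRCr8, matched by symbol for all 10 genes; the start these libraries used was not measured.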

Additional observations from a re-analysis of the deposited data

Results flagged for a closer look

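In a few groups 1 library stood far from the rest, by the gap to its nearest neighbour relative to the group's range. Of 45 group values examined over the 9 genes and 5 groups, 5 were marked in this way, and chance marks about 1 in 20. Vegfa in MR at 2 weeks had a normalised count of 1775 in replicate 1, against 669 to 733 in the others. The same library had the lowest Epas1 of its group, 50.6 against 81.6 to 87.2. Without it the difference of MR at 2 weeks from Sham was -0.47 for Vegfa and 0.34 for Epas1, and neither passed (limma adjusted p = 0.674 and 0.855). Hif1a in MR at 2 weeks was 19.3 in replicate 2, against 12.97 to 13.6 in the others. Epas1 in MR at 40 weeks was 138 in replicate 3, against 159 to 165. Vegfa in Sham was 1309 in replicate 2 in the 2-week table, against 822 to 949.

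MR times that share an operation but differ in time differed from each other by a direct test (limma, 1 fit of all libraries, adjusted p under 0.05). At 40 weeks against 2 weeks the log2 differences were 1.82 for Egln3, 1.23 for Epas1, 1.15 for Nrp1 and 0.48 for Vegfb. At 40 weeks against 10 weeks they were 1.89 for Egln3, 1.80 for Nrp1, 1.495 for Epas1, 0.45 for Vegfb and -0.85 for Vegfa. At 40 weeks against 20 weeks they were 1.73 for Nrp1, 1.31 for Egln3, 1.20 for Epas1 and 0.56 for Kdr. Of these, the calls of Vegfb and Kdr were lost when single libraries were left out.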

How the results depend on the processing

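Egln3, Epas1 and Nrp1 at 40 weeks against Sham kept direction and call under every alternative run, with log2 differences of 1.32 to 1.73, 1.09 to 1.48 and 0.84 to 1.18. Vegfa kept its direction under all of them (-0.86 to -0.61) and lost the call only in the single fit of all libraries, and the cause was not tested. The count of 4 members at 40 weeks against Sham held when any 1 library was left out and was 3 in the single fit. At 20 against 2 weeks the count was 0 to 1 over leave-outs, with 1 without replicate 5 of MR at 20 weeks. No other count of members called changed by more than 1.5 times. Depth limits Hif1a and Vhl most, with 190 to 477 and 193 to 421 reads a library, against 9114 to 41046 for Vegfa.

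Ratios kept their direction at 40 weeks. With a library left out, Vegfb over Vegfa gave 0.64 to 0.93 and Epas1 over Hif1a 1.08 to 1.36. Then 4 against 5 libraries allow no exact p below 0.0159, and the adjusted p was 0.0635 to 0.0952 for both. The loss of the calls follows from that limit and says nothing of how the ratios depend on a library. Signs of ratios that had not passed changed in leave-outs: at 2 weeks Flt1 over Kdr ran from -0.036 to 0.35, Vegfb over Vegfa from -0.51 to 0.36 and Epas1 over Hif1a from -0.081 to 0.21, at 10 weeks Epas1 over Hif1a ran from -0.15 to 0.22, and at 20 weeks Vegfb over Vegfa ran from -0.13 to 0.50.

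Signs of differences from Sham that had not passed changed as well. Under median-ratio rescaling they were 0.0077 for Nrp1 at 2 weeks, -0.035 for Hif1a and -0.029 for Epas1 at 10 weeks, 0.026 for Kdr, 0.13 for Vhl and 0.14 for Vwf at 40 weeks. In edgeR they were 0.048 for Vegfa at 2 weeks, -0.074 for Epas1 at 10 weeks, 0.12 for Vhl and 0.10 for Vwf at 40 weeks. In DESeq2 they were 0.063 for Vegfa at 2 weeks, -0.083 for Epas1 at 10 weeks, 0.018 for Kdr, 0.14 for Vhl and 0.12 for Vwf at 40 weeks. With library weights they were 0.15 for Egln3 at 2 weeks, -0.025 for Hif1a and -0.047 for Epas1 at 10 weeks, -0.0092 for Hif1a at 20 weeks, -0.099 for Vegfb, -0.064 for Ldha, 0.031 for Vwf and 0.30 for Myh11 at 40 weeks. In the single fit of all libraries they were 0.00031 for Flt1 and 0.023 for Nrp1 at 2 weeks, -0.025 for Hif1a and -0.019 for Epas1 at 10 weeks, 0.052 for Kdr, 0.15 for Vhl and 0.16 for Vwf at 40 weeks.

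Over leave-outs more such signs changed. At 2 weeks they changed for Vegfa (-0.47 to 0.0025), Flt1 (-0.21 to 0.049), Nrp1 (-0.20 to 0.13), Hif1a (-0.040 to 0.17), Epas1 (-0.054 to 0.34), Egln3 (-0.46 to 0.17). At 10 weeks they changed for Hif1a (-0.091 to 0.18), Epas1 (-0.15 to 0.18), Egln3 (-0.32 to 0.063). At 20 weeks they changed for Vegfa (-0.21 to 0.32), Flt1 (-0.035 to 0.20), Hif1a (-0.049 to 0.11). At 40 weeks they changed for Vegfb (-0.11 to 0.076), Flt1 (-0.034 to 0.22), Hif1a (-0.024 to 0.15), Vhl (-0.076 to 0.043), Ldha (-0.10 to 0.089), Vwf (-0.097 to 0.080), Myh11 (-0.56 to 0.17), Dcn (-0.034 to 0.25).

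Sham and MR at 2 weeks share numbers in the sample titles. Deviations of same-numbered libraries correlated at 0.018, -0.28, -0.0039 and 0.24, and those of differently numbered libraries at -0.41 to 0.38. These values show no sign of pairing. So few pairs cannot exclude it, and the labels do not say whether the numbers pair the libraries. With the number as a replicate block 0 members were called, and 0 in the same 8 libraries without it, a comparison chosen after seeing the data.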
